A study of Mus musculus with 107 samples.

Results

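Expression of 10 genes that regulate the epithelial-mesenchymal transition (EMT) was examined in 12 mouse syngeneic tumor models before treatment and on day 8 with or without lenvatinib (LEN). The genes were found by their symbols in the deposited table, each matched 1 row, and together they are 10 of 50686 genes. Snai1, Snai2, Twist1, Twist2, Zeb1 and Zeb2 are transcription factors that promote the mesenchymal state. Grhl2 and Ovol1 are transcription factors of epithelial cells. Esrp1 and Esrp2 belong to the same network but are RNA-binding regulators of splicing, so the name EMT transcription factor holds for the other genes and not for these.

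Each model was a mouse cancer cell line implanted under the skin of the right flank in mice that were 7 weeks old, and tumors were of 3 groups. Treatment-naïve (Base) tumors were collected at about 100 mm3, and NT tumors, which received no treatment, and LEN tumors were collected on day 8, LEN being given by mouth once daily at 10 mg/kg. It was dissolved in HCl and given by gavage, so LEN against NT includes gavage and solvent as well. LEN is an inhibitor of several receptor tyrosine kinases, mainly the VEGF and FGF receptors. BALB/cAnNCrlCrlj mice carried 4T1 and EMT6 (breast), BNL 1ME A.7R.1 (liver), CT26.WT (colon), RAG and Renca (kidney) tumors, and C57BL/6NCrl mice carried B16-F10 (melanoma) and MC38 (colon). LL/2 (lung) was grown in C57BL/6JCrl, Hepa 1-6 (liver) in C57L/J, MBT2 (bladder) in C3H/HeNCrl and KLN205 (lung) in DBA/2NCrl mice. The mice were male for BNL 1ME A.7R.1 and Hepa 1-6 and female for all other models. The RAG cells had been adapted to growth in mice beforehand. There were 35 Base, 36 NT and 36 LEN tumors, with 3 per group except for Base MC38 with 2. Each model is 1 cell line, so p-values measure the spread between tumors of that line. The tumors were sequenced whole, with the host vessels, fibroblasts and immune cells inside them.

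During EMT, epithelial cells lose E-cadherin junctions and polarity and gain motility and a mesenchymal matrix program. SNAI, TWIST and ZEB proteins bind E-box motifs and repress epithelial genes such as Cdh1, and TGF-beta signaling is a classic inducer of their expression. ZEB factors and GRHL2 or OVOL proteins repress each other, and the ESRP proteins direct epithelial splicing of receptors and adhesion molecules. Fibroblasts, endothelial cells and macrophages also express several of the mesenchymal factors. Fewer cells of a type and less RNA per cell cannot be told apart in such bulk tumor RNA.

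In GRCm38 (GENCODE M21), Snai1 lies at chr2:167538195-167542814 on the plus strand and Zeb2 at chr2:44983632-45117395 on the minus strand. Snai2 is on chromosome 16, Twist1 on 12, Twist2 on 1, Zeb1 on 18, Esrp1 on 4, Esrp2 on 8, Grhl2 on 15 and Ovol1 on 19, and all 10 are protein-coding. The sequence just upstream of Snai1 is shown because Snai1 was among the members called after LEN and its protein family binds the E-box CACCTG. The 250 bases upstream of the Snai1 start (chr2:167537945-167538194, plus strand, RefSeq, GRCm38.p6) are given in lower case, with the motif in capitals.
Snai1: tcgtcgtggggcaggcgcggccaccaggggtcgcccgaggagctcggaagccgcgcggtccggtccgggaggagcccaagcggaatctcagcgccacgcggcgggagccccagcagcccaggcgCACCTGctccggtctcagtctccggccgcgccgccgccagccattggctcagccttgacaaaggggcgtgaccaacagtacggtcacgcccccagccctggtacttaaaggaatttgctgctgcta
The motif CACCTG, read on both strands as CACCTG or CAGGTG, occurred once, beginning 126 bases upstream of the start. The same windows of Twist1, Twist2 and the 4 starts of Zeb2 held no match. Of 32851 promoter windows of this length, 17.2% held the motif. Sequences of Snai2, Zeb1, Esrp1, Esrp2, Grhl2 and Ovol1 are not shown.

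Values are TPM, a transcript abundance corrected for length and scaled to the same total in each tumor, so levels of different genes can be compared. TPM keeps no sequencing depth, and the counting error behind a value is unknown. Protein-coding genes took 37.1% to 60.5% of the TPM in Base, 40.5% to 62.3% in NT and 27.5% to 66.6% in LEN tumors. The lowest share was that of 4T1 LEN replicate 4, and the means of the members and the calls in 4T1 were computed also without it. Differences are of log2(TPM + 1), where the added 1 makes the change of weakly expressed genes look smaller than it is. A gene was called at a Benjamini-Hochberg adjusted p under 0.05 in limma, and entered a test if its TPM averaged 1 or more in the tumors compared. Ovol1, with a mean of 0.391 TPM over the 72 day 8 tumors, did not enter the tests over all models, and the other 9 members did.

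Snai1, the SNAIL zinc finger repressor, varied widely between treatment-naïve models. EMT6 was highest with 46.3, 67.1 and 44.4 TPM, followed by BNL 1ME A.7R.1 with 39.6, 37.9 and 37.2 TPM. B16-F10 was lowest with 1.35, 1.37 and 1.86 TPM, and RAG had 1.78, 1.98 and 1.82 TPM. In order of the mean, MC38 (34.1), LL/2 (30.0), 4T1 (20.3), Hepa 1-6 (18.7), Renca (17.9), MBT2 (12.5), CT26.WT (12.1) and KLN205 (7.35 TPM) lay between these. The tumors of neighboring models overlapped in 4 of 11 steps, namely from 4T1 to Hepa 1-6, Hepa 1-6 to Renca, MBT2 to CT26.WT and RAG to B16-F10. Snai2, which encodes SLUG, followed another order, and its mean was below that of Snai1 in all models but CT26.WT and KLN205. It was highest in CT26.WT with 14.7, 14.1 and 11.9 TPM and in KLN205 with 12.7, 10.7 and 13.1 TPM, which overlapped. RAG was lowest, with 1.04, 0.76 and 0.90 TPM, and 7 of 11 neighboring pairs of models overlapped.

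The basic helix-loop-helix factors Twist1 and Twist2 were both lowest in B16-F10. Twist1 was highest in MBT2 (43.2, 47.5 and 40.8 TPM) and CT26.WT (42.4, 33.5 and 44.0 TPM), against 0.89, 0.88 and 0.58 TPM in B16-F10. Twist2 was highest in MC38 (43.8 and 37.3 TPM), ahead of Renca (36.4), CT26.WT (33.3) and LL/2 (29.5 TPM on average), whose tumors overlapped with those of their neighbors. Renca thus stood high for Twist2 and low for Twist1, of which it had 2.51, 3.83 and 2.81 TPM. EMT6 showed the opposite pairing, with 23.3 TPM of Twist1 and 2.96 TPM of Twist2 on average.

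Of the ZEB zinc finger homeodomain repressors, Zeb1 was highest in BNL 1ME A.7R.1 with 86.3, 80.6 and 88.1 TPM, which stood clear of LL/2 with 41.0, 43.1 and 42.4 TPM. B16-F10 was lowest for Zeb1, with 4.44, 3.97 and 3.61 TPM. B16-F10 was at the same time highest for Zeb2, with 153, 125 and 145 TPM. Zeb2 was the most abundant member on average (90.6 TPM over Base tumors) and the most even, from 141 TPM in B16-F10 to 41.6 TPM in KLN205 on average, a ratio of 3.39. The corresponding ratio was 21.2 for Zeb1 and 55.9 for Twist1. In order of the mean log2(TPM + 1), neighboring models overlapped in Zeb2 in 10 of 11 steps, the exception being the step from BNL 1ME A.7R.1 down to KLN205. The lowest single tumor, of KLN205, still had 27.2 TPM of Zeb2.

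The epithelial regulators Esrp1 and Grhl2, a splicing factor and a Grainyhead transcription factor, were abundant in KLN205 and 4T1 and near 0 elsewhere. Esrp1 had 32.2, 27.2 and 29.3 TPM in Base KLN205 and 12.0, 12.9 and 8.48 TPM in Base 4T1, and its mean was at most 0.705 TPM in the other models. It was listed at 0 in 13 of 35 Base tumors, including all 3 of LL/2 and all 3 of MBT2. Grhl2 had 27.1, 20.2 and 20.9 TPM in KLN205 and 9.60, 16.4 and 10.5 TPM in 4T1, and its next model was MBT2 with 1.14 TPM. Ovol1 was above 1 TPM in KLN205 alone, with 2.93, 1.5 and 2.81 TPM. Esrp2 was spread more widely. It was highest in KLN205 (24.4, 22.1 and 22.4 TPM), then Hepa 1-6 (11.7, 9.42 and 8.77) and 4T1 (9.41, 10.5 and 9.60 TPM), and all but B16-F10 had a mean of at least 1 TPM.

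**Figure D1:**
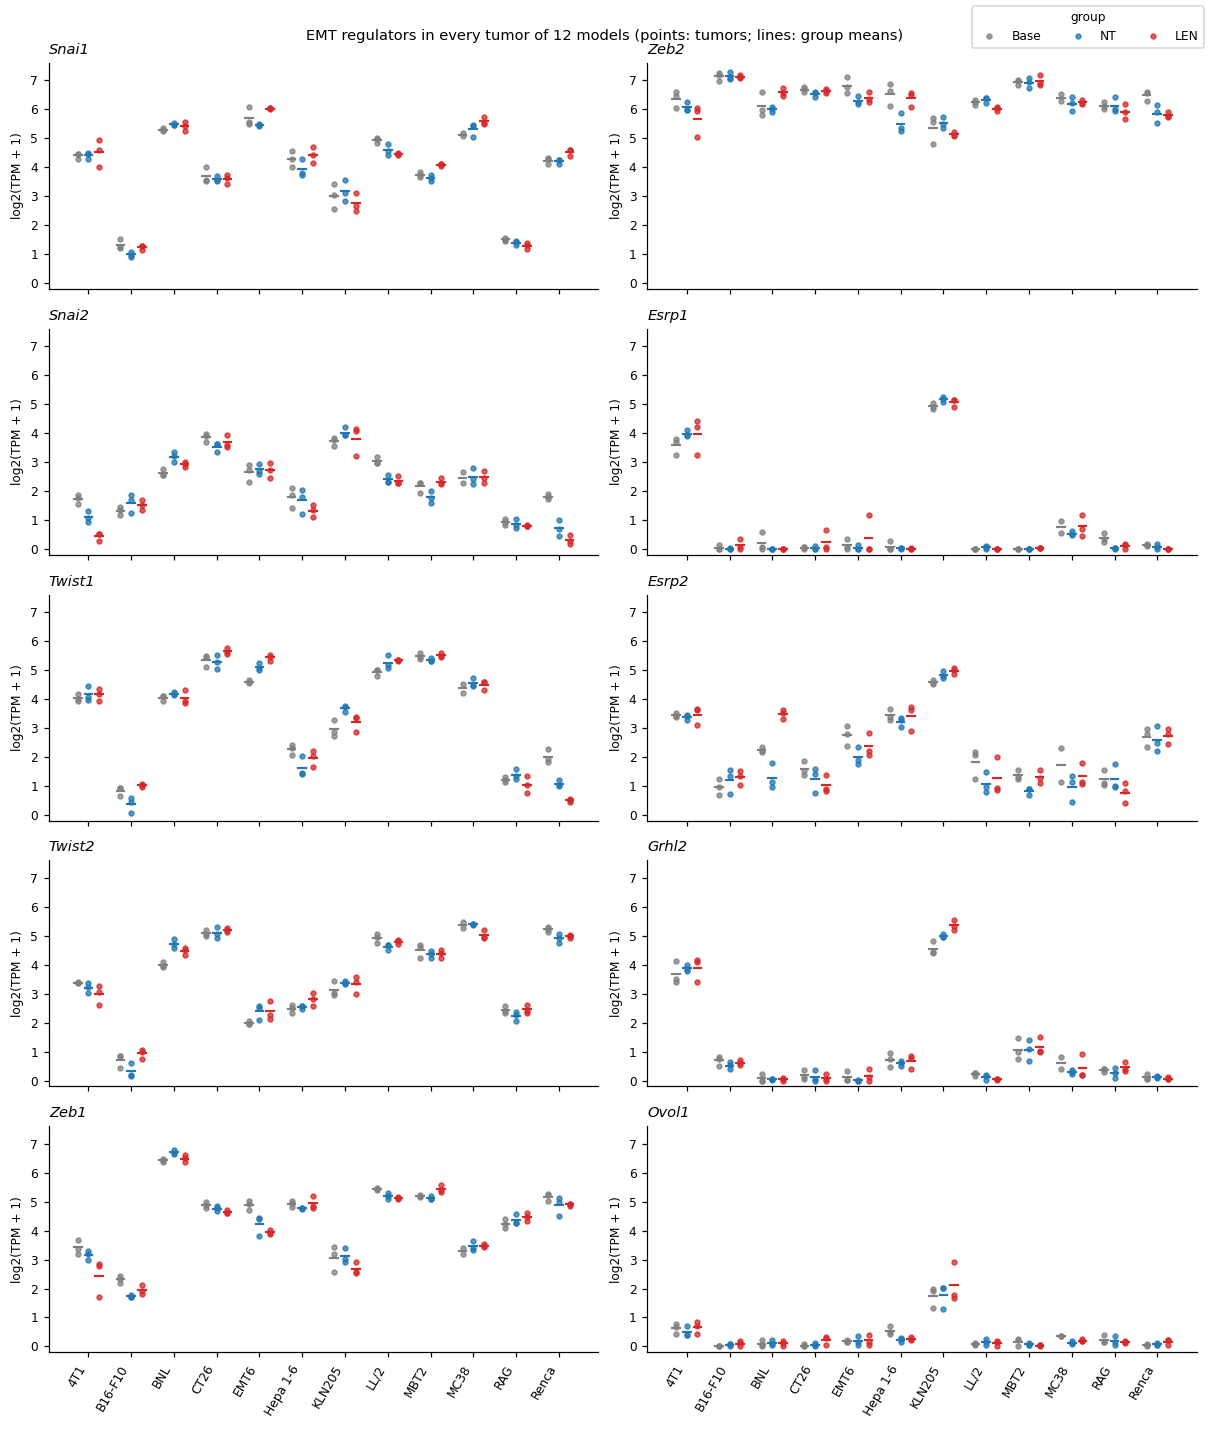
Level of each of the 10 genes in every tumor, as log2(TPM + 1), by model (horizontal axis) and group (Base gray, NT blue, LEN red), with points for tumors and short lines for group means. Esrp1 and Grhl2 were high in 4T1 and KLN205, whereas Zeb2 had at least 27.2 TPM in every tumor.

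The top model by mean was also the top model by median for 10 of 10 members in Base tumors. All 9 tested members differed between Base models by the limma F test (the largest adjusted p, for Zeb2, was 1.05e-06), as did 93.6% of all genes tested, so being called in this test is no particular feature of these genes. The spread by model persisted on day 8. Over the 72 NT and LEN tumors, differences between models held 95% to 98.9% of the variation in log2(TPM + 1) of 7 members, 87.7% for Esrp2 and 78.3% for Zeb2. The median over all genes tested was 84.0%. LEN against NT within models accounted for 11.6% of the variation of Zeb2 and 7.28% of that of Esrp2, for at most 2.02% in the others, and for 5.28% in the median gene.

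**Figure D2:**
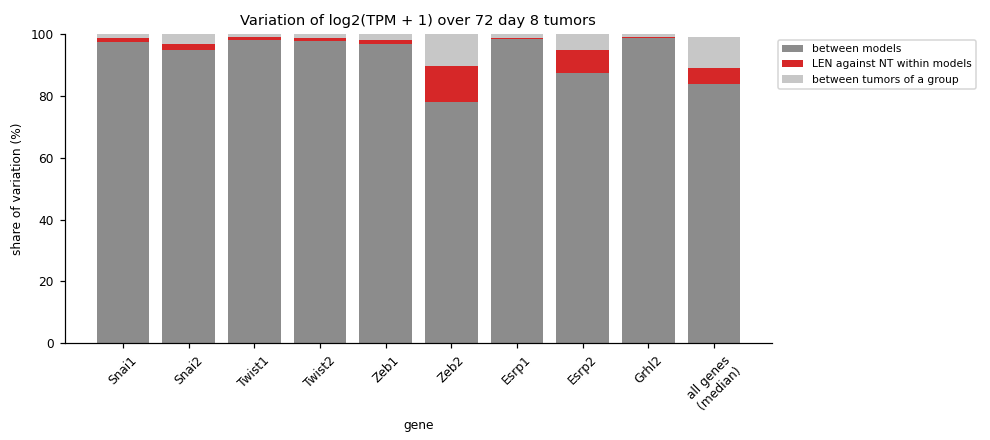
Share of the variation in log2(TPM + 1) over the 72 day 8 tumors that lay between models (dark gray), between LEN and NT within models (red) and between tumors of a group (light gray), in percent. Zeb2 had the smallest share between models (78.3%) of the 9 genes, and the bar of all genes stacks 3 separate medians and need not reach 100.

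Across the 12 Base models, the epithelial regulators went together. Pearson's r of the model means of log2(TPM + 1) was 0.97 between Esrp1 and Grhl2, 0.90 between Esrp1 and Ovol1, and 0.74 between Esrp1 and Esrp2. Without 4T1 and KLN205 these values were -0.01, 0.42 and -0.10 over 10 models, so they rested largely on these models. Esrp2 and Epcam, an epithelial adhesion molecule, gave 0.89 over 12 models and 0.77 over 10. The mesenchymal factors were less close to each other, with 0.68 for Snai1 and Twist1, 0.60 for Twist1 and Twist2, 0.41 for Snai1 and Snai2, and 0.02 for Zeb1 and Zeb2. Twist1 and the intermediate filament gene Vim gave 0.76, and 0.89 without 4T1 and KLN205.

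The r of the repressors with Cdh1, which encodes E-cadherin and is a known target of theirs, was weak for all but Zeb2 over the 12 models. It was 0.17 for Snai1, 0.12 for Snai2, -0.10 for Twist1, 0.05 for Twist2, -0.08 for Zeb1 and -0.58 for Zeb2. Without 4T1 and KLN205 these values were 0.38, -0.08, -0.15, 0.20, 0.50 and -0.29 in the same order, over 10 models. Among pairs of a repressor and an epithelial regulator, the lowest values were -0.74 for Zeb2 and Ovol1 and -0.68 for Zeb2 and Esrp1, which were -0.22 and -0.43 over 10 models. These correlations describe 12 cell lines grown in 6 mouse strains and carry no test.

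**Figure D3:**
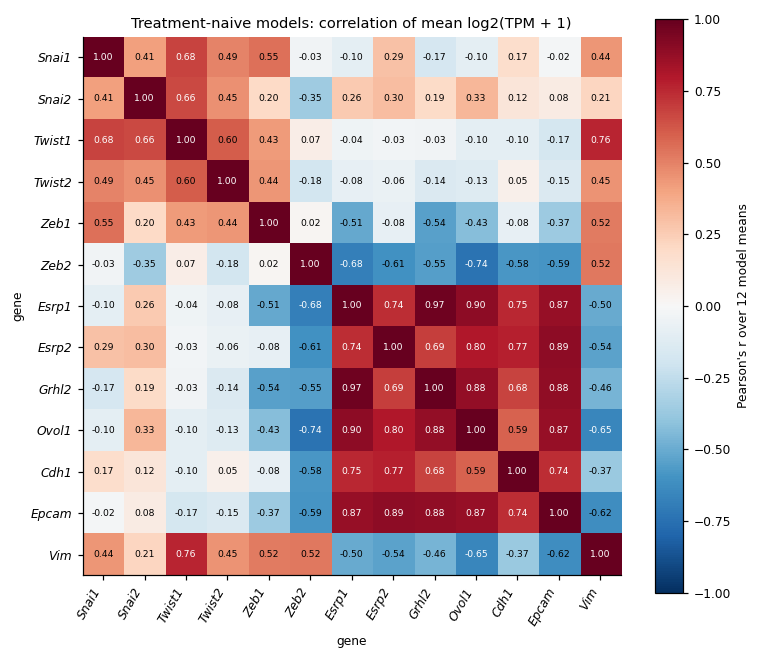
Pearson's r between model means of log2(TPM + 1) over the 12 treatment-naïve models, for the 10 genes and for Cdh1, Epcam and Vim, on a color scale from blue (-1) to red (1). Esrp1, Esrp2, Grhl2 and Ovol1 form a block of positive values with Cdh1 and Epcam, and Snai1, Snai2, Twist1, Twist2 and Zeb1 show a looser one, to which Zeb2 does not belong.

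The genes most like each member were sought among 13273 protein-coding genes by r over the 12 Base model means. Each r named is among the largest of 13273 over 12 points, and high values can arise by chance in such a search. The r in NT comes from the same 12 cell lines, so it is no independent support. These values carry no test. Snai1 was closest to Lsp1, a leukocyte actin-binding protein (r = 0.90 in Base and 0.86 in NT), and to the fibrillar collagen gene Col5a1 (0.89 and 0.83). Esrp1 was closest to the potassium channel gene Kcnk1 (0.99 and 1.00), Lypd3 and the tight junction gene Marveld3. Kcnk1 was also among the closest 3 of Grhl2, beside Tmprss11e and Tmc4. The values of Esrp1 and Grhl2 were not recomputed without the models in which these genes were abundant, and may rest on those models. Esrp2 was closest to Elmo3 (0.96 and 0.86) and to the epithelial laminin chain gene Lamb3 (0.94 and 0.96). Zeb1 was closest to Piga (0.91 and 0.78), Zeb2 to Snx25 (0.88 and 0.75), Snai2 to Cacnb2 (0.87 and 0.64) and Twist2 to Rtn2 (0.87 and 0.77). The closest of Twist1 were 3 histone genes, Hist1h3d, Hist1h4j and Hist1h2bf (0.92 to 0.93), whose near-identical copies make their values uncertain.

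To ask whether LEN changed these regulators, LEN tumors were compared with NT tumors of day 8, first as the mean over the 12 models. Snai1 and Esrp2 were higher after LEN, and the other 7 tested members were not called. Of all genes tested, 13.7% were called higher and 9.87% lower, so 2 called higher among 9 is close to this share. The split of all genes moved with the scaling, from 1712 lower and 2371 higher to 3163 and 2279 after rescaling each tumor by its upper quartile, and to 2807 and 2529 after rescaling by its protein-coding total. Snai1 was higher by 0.15 (SE 0.044, adjusted p = 0.0110). It was higher in 7 of 12 models and lower in 5, and in 5 models all LEN tumors lay above all NT tumors, namely B16-F10, EMT6, MBT2, MC38 and Renca. The call of Snai1 was lost without EMT6 (0.11, adjusted p = 0.112) and without MBT2 (0.12, adjusted p = 0.0699). Esrp2 was higher by 0.30 (SE 0.081, adjusted p = 0.0042), in 10 of 12 models. Without BNL 1ME A.7R.1 the mean difference of Esrp2 was 0.13, with an adjusted p of 0.325.

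The remaining means were small. Snai2 differed by -0.12 (SE 0.054, adjusted p = 0.11), with lower means in 10 of 12 models, and Zeb1 by -0.08 (SE 0.048, adjusted p = 0.247). After these rescalings, Snai2 (-0.15 in each) and Zeb1 (-0.10 and -0.09) were called lower. Snai2 was called lower also with 0.1 in place of 1 added to TPM (-0.26, adjusted p = 0.0172) and without MBT2 (-0.18, adjusted p = 0.0191). Twist1 (0.03), Twist2 (0.05), Zeb2 (0.04), Esrp1 (0.06) and Grhl2 (0.08) had adjusted p of 0.227 to 0.703. Without 4T1 LEN replicate 4 the mean of Zeb1 was -0.05 (adjusted p = 0.369) and that of Zeb2 0.06 (adjusted p = 0.279), both still not called. Among the genes used as references of the 2 states, Cdh1 was higher by 0.55 (SE 0.059, adjusted p = 1.71e-10), and by 0.23 without BNL 1ME A.7R.1 (adjusted p = 0.0075). Vim was higher by 0.14 (adjusted p = 0.0035), a call lost without B16-F10 (0.08), Hepa 1-6 (0.10) or Renca (0.10), and Epcam differed by 0.06 (adjusted p = 0.516).

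**Figure D4:**
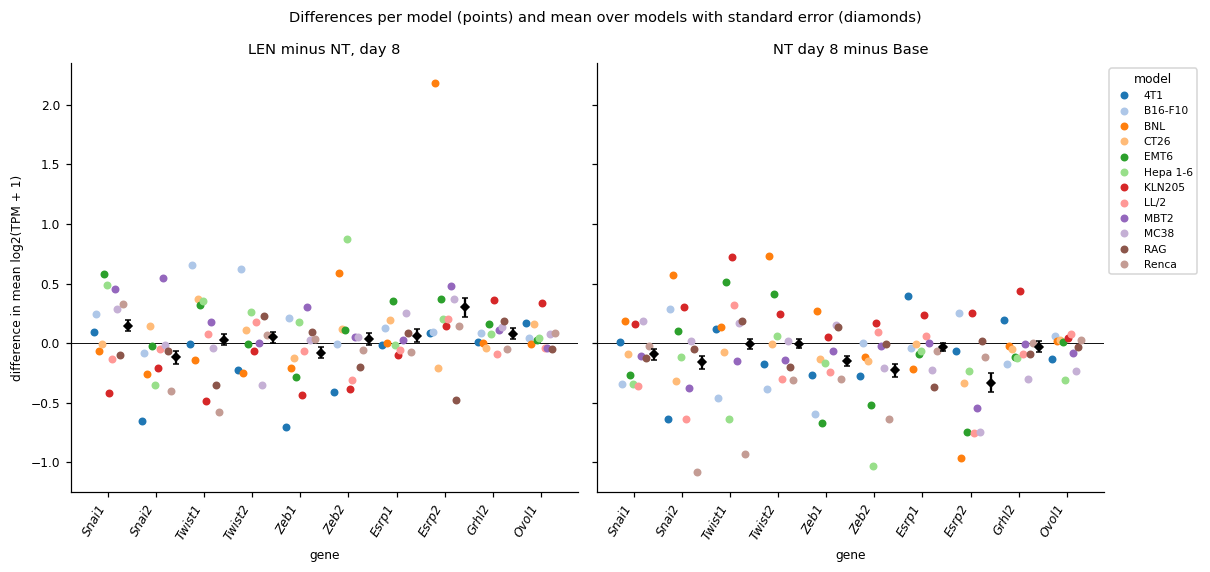
Difference in mean log2(TPM + 1) between LEN and NT tumors (left) and between NT and Base tumors (right) for each of the 10 genes. Colored points are the 12 models and black diamonds the limma mean over models with its standard error, absent for Ovol1. Esrp2 in BNL 1ME A.7R.1 lies at 2.18 in the left panel and at -0.96 in the right one.

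The effect of LEN differed between models for Snai1, Snai2, Twist1, Twist2, Zeb1, Zeb2 and Esrp2 by the F test of 11 contrasts, 7 of the 9 tested members, whereas 35.3% of all genes were called. Twist1 had the smallest adjusted p (9.33e-05), with differences from -0.58 in Renca to 0.65 in B16-F10. In both of these models Twist1 averaged under 1 TPM and was tested only because other models were high, and the call was kept without either. Zeb2 ranged from -0.41 in 4T1 to 0.88 in Hepa 1-6 (adjusted p = 0.000268) and Esrp2 from -0.47 in RAG to 2.18 in BNL 1ME A.7R.1 (adjusted p = 0.000196). For Snai1 (adjusted p = 0.0032) the range was -0.42 in KLN205 to 0.58 in EMT6, and for Zeb1 (adjusted p = 0.0141) it was -0.70 in 4T1 to 0.30 in MBT2. These calls of Twist1, Zeb2, Snai1 and Zeb1 were kept without any 1 of the models. The values of Zeb2 and Zeb1 in 4T1 include LEN replicate 4, the tumor of lowest protein-coding share, which was lowest of the 4T1 LEN tumors for both. Without it both calls of a difference between models were kept (adjusted p = 3.15e-05 and 0.0096). That of Esrp2 was lost without BNL 1ME A.7R.1 (adjusted p = 0.640) and that of Twist2 (adjusted p = 0.0126) without B16-F10 (adjusted p = 0.145). Snai2 (adjusted p = 0.0382) was lost without 4T1, BNL 1ME A.7R.1 or MBT2 (adjusted p = 0.13, 0.0612 and 0.318), and with no minimum TPM (adjusted p = 0.0583). It was also lost without any of 10 of the 72 tumors (adjusted p of up to 0.0982). These were 4T1 NT replicates 2 and 3 and LEN replicate 4, Hepa 1-6 NT replicate 3, MBT2 NT replicates 3 and 5 and LEN replicates 1, 3 and 4, and Renca LEN replicate 5.

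Within single models, fits of 6 tumors tested 84 of the 120 pairs of member and model, since the low genes did not enter, and called 3 of them (3.57%, against 4.85% of all tests of a gene in a model). They were Esrp2 and Zeb2 in BNL 1ME A.7R.1 and Snai1 in EMT6, all higher after LEN. An exact test of 3 tumors against 3 could not give a p under 0.1. With the spread shared over all 72 tumors, 10 of 108 pairs were called (9.26%, against 7.05% of all tests), 7 higher and 3 lower. All LEN tumors lay above all NT tumors in 20 of the 108 pairs (18.5%, against 12.7% over all genes) and below them in 8 (7.41%, against 10.6%).

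The largest difference of any member was that of Esrp2 in BNL 1ME A.7R.1, a liver tumor line. NT tumors had 2.43, 1.18 and 0.95 TPM and LEN tumors 10.4, 8.86 and 11.2 TPM, while Base tumors had 3.51, 3.65 and 4.10 TPM. Every LEN tumor lay above every NT and Base tumor, and the Base tumors lay above the NT tumors. The difference between LEN and NT was 2.18 (SE 0.22, adjusted p = 0.00071, limma), and it was called without each of the 6 tumors. In the same tumors Cdh1 had 4.88, 4.57 and 3.38 TPM in NT, 107, 78.0 and 94.1 TPM in LEN, and 9.94, 15.4 and 15.7 TPM in Base, so its groups did not overlap either. Its difference was 4.16 (SE 0.15, adjusted p = 1.72e-05).

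The other epithelial regulators were near 0 here. Esrp1 was listed at 0 in all 6 day 8 tumors of BNL 1ME A.7R.1, Grhl2 had at most 0.07 TPM, Ovol1 at most 0.16 TPM and Epcam at most 0.52 TPM in them. Of the 22 genes of the epithelial program list, 11 were tested and all 11 were called higher (median 3.22, against 0.17 over all genes tested). They included the simple epithelial keratin gene Krt19, with 5.57 TPM in NT and 260.0 TPM in LEN tumors on average. Of 12 other epithelial transcription factors, 8 were tested and 7 were higher, among them Elf3 (0.18 and 19.1 TPM) and Klf4 (3.52 and 12.7 TPM). In this model 26.3% of all genes tested were called higher and 5.21% lower. Mesenchymal program genes were called as well, 7 of 18 higher and 2 lower (median 0.11), as were TGF-beta pathway genes, 7 of 15 higher and 1 lower (median 0.29). Of 10 tested other EMT factors, 2 were lower and none higher (median 0.02). Of the mesenchymal genes, and chosen after its values were seen, Cdh2, which encodes N-cadherin, had 1.72 TPM in NT and 13.5 TPM in LEN tumors on average (2.41, adjusted p = 4.58e-05).

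No mesenchymal factor was called lower in these tumors. Zeb2 had 63.3, 67.0 and 59.2 TPM in NT and 87.7, 93.1 and 106 TPM in LEN tumors of BNL 1ME A.7R.1, which did not overlap. Base tumors had 54.8, 61.8 and 95.1 TPM and covered both ranges in part. The difference was 0.59 (SE 0.086, adjusted p = 0.0030) and was called without each of the 6 tumors. Zeb1 had 102, 108 and 98.9 TPM in NT and 80.7, 89.2 and 96.9 TPM in LEN tumors, so all LEN tumors lay below NT, with a difference of -0.21 (SE 0.08, adjusted p = 0.0854). Snai1 differed by -0.06 and Vim by -0.05, with adjusted p of 0.598 and 0.642.

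Markers of other cell types moved in the same BNL 1ME A.7R.1 tumors. The summed TPM of 5 skeletal muscle markers was 37.0 to 112 in NT, 1526 to 2211 in LEN and 280.0 to 637 in Base tumors, and 5 of 5 were called higher after LEN. The 3 adipocyte markers summed to 0.40 to 2.04 TPM in NT and 13.2 to 40.4 TPM in LEN tumors, with 3 of 3 called higher. The 5 hepatocyte markers summed to 0.65 to 1.46 TPM in NT, where Alb, Apoa1 and Ttr were listed at 0, and to 26.1 to 40.5 TPM in LEN tumors, with 2 of 2 tested called higher. The 8 skin keratinocyte markers summed to 1.64 to 4.15 TPM in NT and 4.19 to 5.70 TPM in LEN tumors, without overlap, with 1 of 2 tested called higher. Endothelial markers were lower, 6 of 7 being called, with sums of 114 to 133 TPM in NT and 42.9 to 48.9 TPM in LEN tumors, and 3 of 4 tested T and NK cell markers were higher. The 10 fibroblast markers summed to 8276 to 9370 TPM in NT and 6739 to 7675 TPM in LEN tumors, 6 being called lower and 1 higher, and sums of the 7 myeloid markers overlapped, at 1104 to 1212 and 1011 to 1291 TPM. The part of these cells in the differences of Esrp2 and Zeb2 was not tested.

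**Figure D5:**
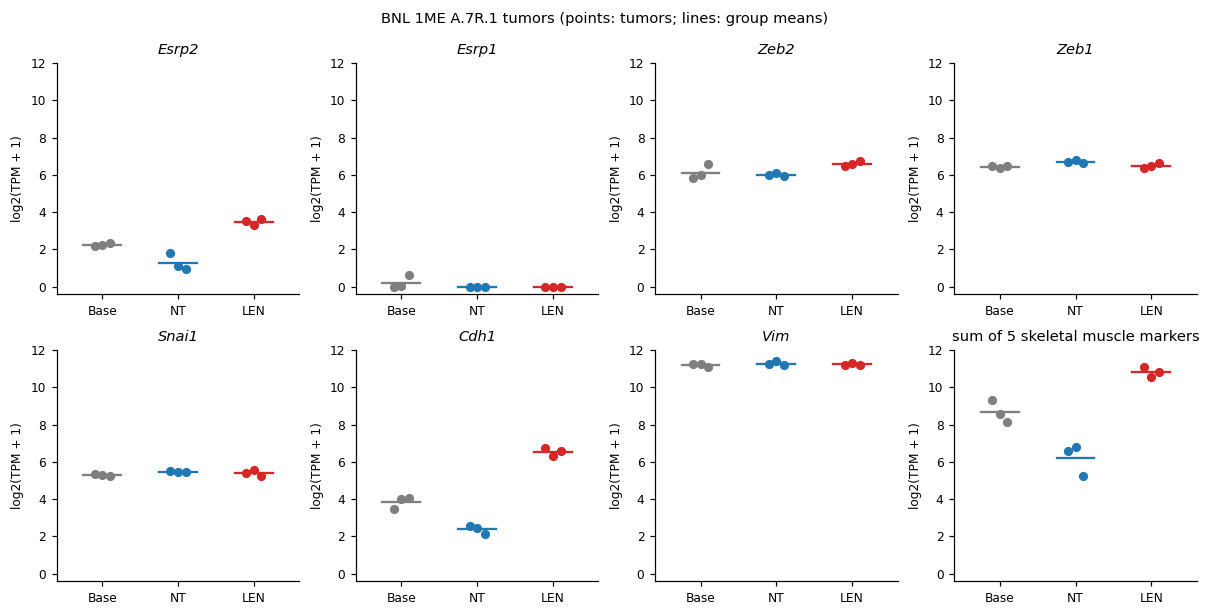
Levels in the BNL 1ME A.7R.1 tumors as log2(TPM + 1), by group (Base, NT, LEN), with points for the 3 tumors and lines for their mean, on the same scale in every panel. Esrp2, Cdh1 and the sum of 5 skeletal muscle markers were lower in NT than in Base and highest in LEN, while Esrp1 was at 0 on day 8 and the groups of Vim overlapped.

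Snai1 in EMT6, a breast tumor line, was the remaining call. NT tumors had 42.68, 41.96 and 43.77 TPM and LEN tumors 65.2, 64.7 and 63.3 TPM, a difference of 0.58 (SE 0.072, adjusted p = 0.0287). The groups did not overlap and were tight, but a Base tumor with 67.1 TPM lay above the LEN tumors while the others had 46.3 and 44.4 TPM. In this model 0.819% of genes were called higher. The call was lost without any of the 6 tumors (adjusted p of 0.0710 to 0.126, differences of 0.56 to 0.59), with either rescaling (0.48 and 0.46), and with no mean-variance trend (adjusted p = 0.0817). In the same tumors the T and NK cell sum was 3.21 to 4.47 TPM in NT and 6.62 to 14.1 TPM in LEN, the skeletal muscle sum 33.2 to 41.95 and 51.8 to 72.01 TPM and the melanocyte sum 6.39 to 6.86 and 7.67 to 8.86 TPM, each without overlap, while the sums of the other 6 lists overlapped. Of the 7 melanocyte list genes only 1 averaged 1 TPM or more in EMT6, so that sum is not a measure of melanocytes. The part of other cells in the difference of Snai1 was not tested. MBT2 and Renca showed the same direction without overlap, with Snai1 at 12.3, 10.6 and 11.5 TPM in NT and 16.5, 15.7 and 16.2 TPM in LEN tumors of MBT2 (0.46, adjusted p = 0.118), and a difference of 0.33 in Renca (adjusted p = 0.057). In KLN205 the groups overlapped, at 7.69, 6.23 and 10.8 TPM in NT and 7.71, 5.35 and 4.62 TPM in LEN tumors.

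Sharing the spread over all 72 tumors added 7 calls. Of these, Twist1 and Twist2 in B16-F10, Twist1 in Renca and Snai2 in 4T1 averaged under 1 TPM in their own model and entered no test there. They passed the minimum through models where they were higher, and their SE came from all models, so these 4 calls have no test within the model itself. In B16-F10, Twist1 had 0.36, 0.05 and 0.50 TPM in NT and 0.93, 1.06 and 1.09 TPM in LEN tumors (0.65, SE 0.16, adjusted p = 0.0021). Twist2 had 0.53, 0.15 and 0.11 TPM in NT and 1.09, 0.69 and 1.00 TPM in LEN tumors of the same model (0.62, SE 0.15, adjusted p = 0.0023). Neither gene overlapped between the groups, although both stayed near 1 TPM, and the Base tumors, with 0.58 to 0.89 TPM of Twist1 and 0.34 to 0.81 TPM of Twist2, lay between the groups or overlapped them. The fibroblast marker sum of these tumors was 134 to 162 TPM in NT, 483 to 630 TPM in LEN and 286 to 429 TPM in Base, and the myeloid sum was 98.6 to 134.5 TPM in NT and 279 to 372 TPM in LEN. Sums of skeletal muscle (2.44 to 21.9 TPM in NT and 129 to 200.3 TPM in LEN), T and NK cell (0.72 to 2.89 and 10.5 to 13.1 TPM), adipocyte (0.10 to 0.86 and 4.12 to 9.74 TPM) and keratinocyte markers (0 to 0.03 and 0.21 to 101 TPM) were also higher in LEN without overlap, and the endothelial sum was lower (25.4 to 34.95 and 14.0 to 15.6 TPM). The part of these cells was not tested.

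Twist1 moved the other way in Renca, from 1.03, 1.01 and 1.31 TPM in NT to 0.46, 0.44 and 0.35 TPM in LEN tumors (-0.58, adjusted p = 0.0104), without overlap. The fibroblast sum there was 379 to 781 TPM in NT and 197 to 422 TPM in LEN tumors, which overlapped. The myeloid sum was 1121 to 1302 TPM in NT and 607 to 631 TPM in LEN tumors, and the endothelial sum 48.2 to 65.2 and 13.4 to 16.7 TPM, both without overlap. The T and NK cell sum was 3.51 to 4.67 TPM in NT and 5.35 to 6.41 TPM in LEN tumors. The part of these cells was not tested. The call of Twist1 in Renca was lost without NT replicate 5 (adjusted p = 0.0725) or LEN replicate 5 (adjusted p = 0.0529). Across the 12 models, the change of Twist1 with LEN and the change of the log2 fibroblast marker sum had an r of 0.74 (lowest 0.66 when B16-F10 was left out), and for Twist2 the r was 0.75 (lowest 0.45, likewise). With the myeloid sum the r was 0.66 for Twist1 and 0.65 for Twist2, and with the keratinocyte sum 0.54 and 0.62, among 9 marker lists examined for each gene. Without B16-F10 these fell to 0.49 and 0.37 with the myeloid sum and to 0.30 and 0.30 with the keratinocyte sum. Larger values were seen for other members. Esrp2 had an r of 0.86 with the hepatocyte sum and 0.77 with the adipocyte sum, which were -0.29 and 0.15 without BNL 1ME A.7R.1. Zeb2 had 0.85 with the melanocyte sum (lowest 0.69, without Hepa 1-6). Each point shares its tumors between both values, and the comparisons shown were chosen after the values were seen.

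In Hepa 1-6, Zeb2 had 40.3, 37.6 and 58.1 TPM in NT and 94.2, 90.1 and 66.1 TPM in LEN tumors, with all LEN tumors above NT (0.88, SE 0.17, adjusted p = 0.000485 in the shared fit, 0.0893 in its own). Base tumors had 97.4, 68.5 and 116 TPM, close to the LEN tumors. In the same order, the sum of 7 myeloid markers was 546, 419 and 912 TPM in NT and 1448, 1292 and 948 TPM in LEN tumors, so the NT tumor with the most Zeb2 also had the highest myeloid sum of NT, and the LEN tumor with the least had the lowest of LEN. The same held in these tumors for the fibroblast, endothelial, melanocyte and T and NK cell sums, so it was not seen for myeloid markers alone. The fibroblast sum was 1528 to 2597 TPM in NT and 2749 to 3224 TPM in LEN. The part of these cells was not tested. Snai1 was also called in Hepa 1-6 in the shared fit (0.49, adjusted p = 0.0336), with 13.2, 12.2 and 18.5 TPM in NT and 16.7, 20.7 and 25.3 TPM in LEN tumors, which overlapped. Of these calls that of Zeb2 was kept without each of the 6 tumors, and that of Snai1 was lost without NT replicate 2 or 3 or LEN replicate 4 or 5 (adjusted p of 0.0765 to 0.226, differences of 0.35 to 0.49).

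In 4T1, Zeb1 had 6.88, 8.19 and 8.72 TPM in NT and 6.25, 2.24 and 5.93 TPM in LEN tumors (-0.70, SE 0.17, adjusted p = 0.0032 in the shared fit, 0.736 in its own). The value of 2.24 TPM belongs to 4T1 LEN replicate 4, the tumor with 27.5% of TPM in protein-coding genes, and without it the difference was -0.33 and the call was lost (adjusted p = 0.242 in the shared fit, 0.399 in its own). Snai2 had 0.89, 1.48 and 1.10 TPM in NT and 0.45, 0.20 and 0.45 TPM in LEN tumors (-0.65, adjusted p = 0.0129 in the shared fit), again without overlap. This call was lost without LEN replicate 4 (-0.56, adjusted p = 0.148) and without NT replicate 2 (-0.55, adjusted p = 0.0876). The myeloid sum of these tumors was 989.7 to 1443 TPM in NT and 324 to 593 TPM in LEN, and the endothelial sum 41.8 to 67.7 and 18.9 to 32.3 TPM, both without overlap, while the fibroblast sums overlapped. The part of these cells was not tested. LEN replicate 4 was lowest of the LEN tumors for Zeb2 (31.8 TPM), Esrp1 (8.52), Esrp2 (7.62) and Grhl2 (9.50 TPM) too.

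Esrp1 and Grhl2 gave no call with LEN in any model in the fit of all 72 tumors, and Ovol1 was tested in KLN205 alone, without a call (adjusted p = 0.754). Esrp1 and Grhl2 passed the minimum through KLN205 and 4T1. In fits of single models they entered only there, and Grhl2 also in MBT2. In the other models they were near 0, so the lack of a call says little. In the models where Esrp1 was near 0, single tumors stood out. Among EMT6 LEN tumors Esrp1 was 0, 0 and 1.27 TPM, and the keratinocyte marker sums of the same tumors were 11.2, 7.14 and 199.7 TPM. CT26.WT LEN tumors had 0.04, 0.56 and 0 TPM of Esrp1 with keratinocyte sums of 5.83, 101 and 2.79 TPM, and MC38 LEN tumors had 0.38, 0.63 and 1.27 TPM with sums of 1.68, 5.69 and 47.8 TPM. B16-F10 LEN tumors had 0.26, 0.05 and 0 TPM with sums of 101, 1.02 and 0.21 TPM. In each of these 4 groups the tumor with the most Esrp1 was also the one with the most keratinocyte marker RNA. This was not so in MC38 NT tumors, with 0.40, 0.42 and 0.53 TPM of Esrp1 and sums of 27.0, 2.35 and 3.19 TPM. The part of host skin was not tested. In KLN205 these markers summed to 726 to 2016 TPM in the tumors of all groups, so there they are not a measure of host skin. Grhl2 in KLN205 had 32.8, 30.3 and 29.8 TPM in NT and 45.3, 36.1 and 39.3 TPM in LEN tumors. These did not overlap, with a difference of 0.36 (adjusted p = 0.211). Ovol1 in KLN205 was 1.47, 3.09 and 3.07 TPM in NT and 6.49, 2.46 and 2.21 TPM in LEN tumors, which overlapped.

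NT tumors of day 8 were compared with Base tumors as the mean over models. This comparison shares the NT tumors with that of LEN, so the 2 sets of differences are not independent. The groups differ in time of collection and may differ in instrument, so growth without treatment and batch cannot be told apart. The protein-coding share also differed without overlap in both directions, being higher in NT for EMT6 and lower for CT26.WT. Esrp2, Zeb2, Zeb1 and Snai2 were lower in NT, 4 of the 9 tested members, and none was called higher. Of all genes tested, 11.5% were called lower and 17.0% higher, from 2002 and 2971 of 17428 genes. That split depended on the scaling, being 3524 lower and 1419 higher after upper-quartile rescaling and 3851 and 1199 after protein-coding rescaling, while the 4 members were called lower under each, with Snai1 added.

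Esrp2 was lower by 0.33 on average (SE 0.078, adjusted p = 0.0011), in 9 of 12 models. The difference was most negative in BNL 1ME A.7R.1 (-0.96), followed by LL/2, EMT6 and MC38, and the call held without each model. In BNL 1ME A.7R.1 the skeletal muscle sum was 280.0 to 637 TPM in Base and 37.0 to 112 TPM in NT, and the adipocyte sum 10.6 to 33.1 and 0.40 to 2.04 TPM. The fibroblast sum was 4493 to 4766 and 8276 to 9370 TPM and the myeloid sum 396 to 555 and 1104 to 1212 TPM. None of these overlapped, and the part of these cells was not tested. Zeb2 was lower by 0.23 (SE 0.054, adjusted p = 0.0014), in 10 of 12 models. It was most negative in Hepa 1-6 (-1.03), where the NT tumors (40.3, 37.6 and 58.1 TPM) lay below all Base tumors, and where the myeloid marker sum was 968 to 1823 TPM in Base and 419 to 912 TPM in NT. The sum of the melanocyte list genes there was also lower without overlap, at 10.45 to 21.9 TPM in Base and 4.44 to 8.92 TPM in NT. Such sums are far below the 8586 to 10032 TPM of B16-F10 NT tumors, and which cells gave this RNA is unknown. The fibroblast and endothelial sums overlapped, and the part of any of these cells was not tested. Renca (-0.64) and EMT6 (-0.52) came next. This call too held without each model.

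Zeb1 was lower by 0.15 (SE 0.043, adjusted p = 0.0061), most in EMT6 with 29.2, 25.3 and 31.7 TPM in Base and 13.2, 20.7 and 20.1 TPM in NT, which did not overlap. In these tumors the myeloid sum was 575 to 785 TPM in Base and 862 to 987 TPM in NT, and the skeletal muscle, adipocyte and keratinocyte sums were lower in NT, each without overlap. Their part was not tested. The call was lost without B16-F10 (adjusted p = 0.0657) or EMT6 (adjusted p = 0.0757). Snai2 was lower by 0.16 (SE 0.052, adjusted p = 0.0155), most in Renca, from 2.29, 2.69 and 2.45 TPM to 0.37, 0.61 and 1.00 TPM without overlap. In the same tumors the fibroblast sum was 1629 to 2516 TPM in Base and 379 to 781 TPM in NT, and the endothelial sum 92.7 to 122 and 48.2 to 65.2 TPM, both without overlap. The myeloid, T and NK cell, skeletal muscle, adipocyte and keratinocyte sums were lower there without overlap as well, and the part of these cells was not tested. The call of Snai2 was lost without 4T1, LL/2 or Renca (adjusted p = 0.114, 0.104 and 0.299). Snai1 differed by -0.09 (adjusted p = 0.118) and was called lower after upper-quartile (-0.14) and protein-coding rescaling (-0.15) and without KLN205 (-0.12). Twist1, Twist2, Esrp1 and Grhl2 differed by at most 0.03 in size on average, but single models moved in opposite directions, with Twist1 at 0.72 in KLN205 and -0.93 in Renca.

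Cell type markers differed between NT and Base tumors as well. Not all of the lists mark host cells alone. In NT, the melanocyte sum was 8586 to 10032 TPM in B16-F10, against a median of 7.365 TPM over the tumors of all models. The keratinocyte sum was 1294 to 1407 TPM in KLN205, against a median of 2.14 TPM. In NT against Base, 5 of 10 fibroblast, 5 of 7 endothelial, 3 of 5 T and NK cell, 5 of 5 skeletal muscle and 3 of 3 adipocyte markers were called lower and none of them higher. After either rescaling 8 of 10 fibroblast and 6 of 7 endothelial markers were lower. Of the other lists, 1 of 7 myeloid (2 after either rescaling), 2 of 7 melanocyte, 0 of 3 keratinocyte and 0 of 5 hepatocyte markers were lower. Of all genes tested, 11.5% were called lower and 17.0% higher, and these last lists are too small to set apart from that share. In LEN against NT, 6 of 6 tested endothelial and 4 of 7 myeloid markers were called lower, 5 of 5 T and NK cell and 5 of 5 skeletal muscle markers higher, and of 10 fibroblast markers 3 were lower and 2 higher. Of the other lists, 1 of 4 keratinocyte, 1 of 1 adipocyte, 1 of 5 hepatocyte and 0 of 7 melanocyte markers were higher with LEN. Of all genes tested, 13.7% were called higher and 9.87% lower with LEN, and these last lists are too small to set apart from that share. The part of these cells in the mean differences of the members was not tested.

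The wider pathway was described with lists of known genes, whose counts stand beside the 13.7% of all genes called higher and 9.87% lower with LEN. Of 22 epithelial program genes, 13 were called higher after LEN on average and none lower (median 0.15, against -0.00 over all genes tested), with Krt19 at 0.78 and Cdh1 at 0.55. Without BNL 1ME A.7R.1, 4 were called higher. Of 10 tested other epithelial factors, 9 were called higher and none lower (median 0.24), and 5 without that model. They were led by Elf3, an ETS factor (0.54, and 0.21 without that model), and Klf4 (0.46 and 0.36). Both were still called without it, with adjusted p of 0.0037 and 1.85e-07.

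Mesenchymal program genes went both ways, with 2 of 18 lower and 5 higher (median 0.12), or 5 and 5 after upper-quartile rescaling, the lower count being near the share over all genes. Acta2, the smooth muscle actin of pericytes and myofibroblasts, was lower in 12 of 12 models (-0.54, adjusted p = 2.64e-07), as was the matrix gene Sparc in 10 of 12 (-0.28). S100a4 was higher (0.25, adjusted p = 0.0144), but lost its call without B16-F10 (0.08) or Hepa 1-6 (0.20). Of 15 TGF-beta pathway genes, 2 were lower, again near that share, and 5 higher (median -0.00), or 5 and 5 after either rescaling. The ligand gene Tgfb3 (-0.27) and the receptor gene Tgfbr2 (-0.16, but -0.07 and not called without Renca) were lower, and the target genes Id2 (0.30) and Smad7 (0.24), an inhibitory SMAD, were higher. Of 11 tested other EMT factors, the E-protein gene Tcf4 was lower (-0.16) and the AP-1 gene Fosl1 higher (0.34), which is no more than the share over all genes. In NT against Base, where 11.5% of all genes were called lower and 17.0% higher, the counts lower and higher were 4 and 0 of 22 epithelial program genes, 2 and 3 of 18 mesenchymal genes, 2 and 4 of 15 TGF-beta genes, 1 and 5 of 11 other EMT factors and 1 and 1 of 10 other epithelial factors. Of these, the mesenchymal counts and those of the other epithelial factors were near the shares over all genes. After either rescaling, no mesenchymal gene was higher, TGF-beta genes were 4 lower and 1 higher, 9 epithelial program genes were lower, and other EMT factors were 1 and 1.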

How the data were processed

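RNA of 107 tumors was sequenced after ribosomal RNA depletion, on 2 kinds of instrument that the labels do not assign to tumors. The authors used FastQC 0.11.5 and Trimmomatic 0.36 on the reads, STAR 2.5.2b for mapping to mm10 (Ensembl release 88) and RSEM 1.2.31 for quantification, and deposited TPM for 50686 genes. Column sums were 999999 to 1000001, so depth and counting precision are unknown. Gene records came from GENCODE M21.

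Groups came from the labels. The log2(TPM + 1) values were fitted with limma 3.58.1 in R 4.3.3 (lmFit, eBayes with a mean-variance trend), with a minimum mean TPM of 1 and Benjamini-Hochberg adjustment over all genes tested. Day 8 tumors were fitted as 24 groups, NT and Base tumors likewise (71 tumors), Base tumors by model, and each model alone. The code was tested on simulated data. The members and lists were chosen with earlier results of these data known. Named are all members, Cdh1, Epcam and Vim, at most 4 genes per pathway list (the largest called rises and falls of the LEN mean) and the 3 genes most correlated with each member. A gene that this rule names is not reported here. Tried besides were no minimum TPM or 5, adding 0.1 in place of 1, upper-quartile and protein-coding rescaling, no trend, a replicate block, a fit shared by all models, medians, and leaving out each tumor or model. Leaving out models in the test of differences between models, and tumors in the shared fit, was added after seeing the data.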

Additional observations from a re-analysis of the deposited data

Results flagged for a closer look

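The effect of LEN differed between the 12 models, by the limma F test of 11 contrasts, for 7 members and 2 reference genes. The adjusted p was 0.0032 for Snai1, 0.0382 for Snai2, 9.33e-05 for Twist1, 0.0126 for Twist2, 0.0141 for Zeb1, 0.000268 for Zeb2 and 0.000196 for Esrp2. It was 1.37e-16 for Cdh1 and 3.87e-09 for Vim. Without BNL 1ME A.7R.1 the adjusted p was 0.640 for Esrp2 and 0.346 for Cdh1.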

How the results depend on the processing

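Depth is unknown with TPM, and 3 tumors per group limit every comparison within a model. The number of members called in LEN against NT was 2, and it was 4 after upper-quartile and 4 after protein-coding rescaling, 1 without BNL 1ME A.7R.1 and 1 without EMT6. Genes called lower numbered 1712, but 3163 and 2807 after these rescalings, and genes called higher 2371, but 1440 without BNL 1ME A.7R.1. Genes with a difference between models numbered 6122, but 3443 without BNL 1ME A.7R.1. In NT against Base, 2002 genes were lower, but 951 at a minimum of 5 TPM, 3524 after upper-quartile and 3851 after protein-coding rescaling. The higher genes numbered 2971, but 1419 and 1199 after these rescalings, 1950 without EMT6 and 1765 without KLN205. The 3 calls within models became 6 after upper-quartile rescaling and 10 in the fit of all 72 tumors.

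Means near 0 changed sign. For LEN, Twist1 (0.03) became -0.02712 without B16-F10, -0.001726 without CT26.WT and -1.033e-05 without Hepa 1-6, Twist2 (0.05) -0.003827 without B16-F10, and Zeb2 (0.04) -0.01403 without BNL 1ME A.7R.1 and -0.04011 without Hepa 1-6. For NT against Base, Twist1 (-0.0078) became 0.03362 without B16-F10, 0.04955 without Hepa 1-6, 0.005216 without MBT2 and 0.07564 without Renca, and lay between -0.02435 and 0.005989 without single tumors. Twist2 (-0.0045) became 0.01074, 0.03021, 0.02244, 0.007955, 0.01298 and 0.02326 without 4T1, B16-F10, LL/2, MBT2, RAG and Renca, and lay between -0.0167 and 0.00832 without single tumors. Vim (0.04) became -0.01495 and -0.02537 after upper-quartile and protein-coding rescaling, -0.01244 without EMT6 and -7.513e-05 without KLN205. None of these differences was called, and the cause was not tested.

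Replicate numbers did not pair the tumors, since deviations of same-numbered LEN and NT tumors of a model had correlations of -0.0762 to 0.0763, and of NT and Base tumors -0.143 to 0.103. With the replicate number as a block, 10 pairs of member and model were called in the fit of all 72 tumors, as without it, and no call of a mean changed. The block was not run in fits of single models, which share few numbers.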
